A study of Mus musculus with 6 samples.

Results

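Macroautophagy genes were followed in mouse chondrocytes given vesicles of unstimulated or of LPS-stimulated macrophages. The 36 genes were taken by symbol from a list of core autophagy machinery and cargo receptors, out of 55487 genes in the deposited tables. The rule used no measured value, but the list was chosen with earlier results of these data known. Each of the 36 is protein coding in GENCODE, each was matched to 1 gene identifier, and each passed the filter on low counts that left 14604 genes to test. The libraries were made from chondrocytes of the knee cartilage of C57B/6 mice. The M-EV group (n = 3) was given vesicles of unstimulated macrophages, and the M-LPS-EV group (n = 3) was given vesicles of macrophages stimulated with lipopolysaccharide (LPS), a component of the bacterial outer membrane. Both groups received vesicles at 10 µg/ml of protein for 24 h, so each value is a difference between 2 kinds of vesicle. Cells without vesicles were not analysed here. The labels give neither the age or number of the mice nor the source of the macrophages, and do not say whether the replicates came from separate animals or cultures, and the p-values therefore speak only of the spread among these libraries, which may be technical.

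Macroautophagy wraps cytoplasm, aggregates or organelles in a double membrane and delivers them to the lysosome. The ULK1 kinase complex starts the process, the class III PI3-kinase complex marks the membrane with PI3P, and the ATG16L1, ATG5, ATG12, ATG7, ATG3 and ATG10 proteins attach ubiquitin-like ATG8 proteins (LC3 and GABARAP) to its lipids, where cargo receptors bind them. In cartilage, autophagy is known as a housekeeping process of the long-lived chondrocyte, and mTORC1 and the transcription factors TFEB and TFE3 set the supply of its parts.

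Library totals ran from 20239626 to 25712667 expected counts, and the autophagy genes took 0.293% to 0.309% of them. Their smallest count in any library was 121. The cells carried the chondrocyte label in their RNA: all 10 chondrocyte markers were above 1 TPM (a share of transcripts, so a level per transcript length), with a summed level of 52585 to 53112 TPM in M-EV and 43404 to 44429 TPM in M-LPS-EV, and 9 of the 10 fell. The 12 macrophage markers summed to 34.7 to 36.7 TPM in M-EV and 42.2 to 47.5 TPM in M-LPS-EV, of which 5 were above 1 TPM. Of the 6 macrophage markers that could be tested, 3 rose and the other 3 were not called, while Ptprc, the pan-leukocyte CD45 gene, was at 0.07 to 0.25 TPM in every library. Of the macrophage markers with too few counts to test, C1qa and C1qb were lower in M-LPS-EV. C1qa had 8, 14 and 15 counts in M-EV and 1, 0 and 1 in M-LPS-EV. C1qb had 9, 15 and 10 in M-EV and 2, 3 and 0 in M-LPS-EV. C1qc, Fcer1g, Fcgr1 and Ptprc, also untested, had levels that overlapped between the groups. No fall was thus tested, and in counts the macrophage markers did not move one way. Nor did the 7 fibroblast markers, of which 2 rose (Dcn and Lum), 3 fell (Col1a1, Col1a2 and Thy1) and 2 were not called, while their summed level went from 1263 to 1268 TPM in M-EV to 1421 to 1436 TPM in M-LPS-EV. The part of these markers in the results on autophagy genes was not tested. In bulk RNA, fewer cells of a type and less RNA per cell cannot be told apart.

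The autophagy genes that changed did so by little and in both directions, and most were not called. Of the 36 genes, 8 rose (Optn, Tfe3, Wipi1, Ulk1, Pik3c3, Lamp2, Sqstm1 and Lamp1), 4 fell (Gabarap, Ulk2, Atg3 and Nbr1) and 24 did not pass the threshold of an adjusted p of 0.05 (edgeR's two-sided quasi-likelihood test, adjusted over all tested genes by the Benjamini-Hochberg method). That is 33.3% of the genes called, beside 31.6% called either way over all tested genes, where 16.4% were called higher and 15.2% lower, so the share called was near that of any gene. The sizes were small. On the log2 scale the differences, M-LPS-EV relative to M-EV, ran from -0.21 to 0.32 with a median of 0.05, and the called genes changed by -13.5% to 25.0%. The median size of change was 0.084 on the log2 scale, beside 0.129 over all tested genes, and 0 of the 36 reached 0.5 in size, beside 11.1% of all tested genes. When edgeR tested for a change larger than 1.2-fold, 0 of the 36 passed, beside 7.79% of all tested genes, and 1 had an unadjusted p under 0.05. The M-EV and M-LPS-EV libraries did not overlap for 15 of the 36 genes, beside 42.2% of all tested genes.

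**Figure D1:**
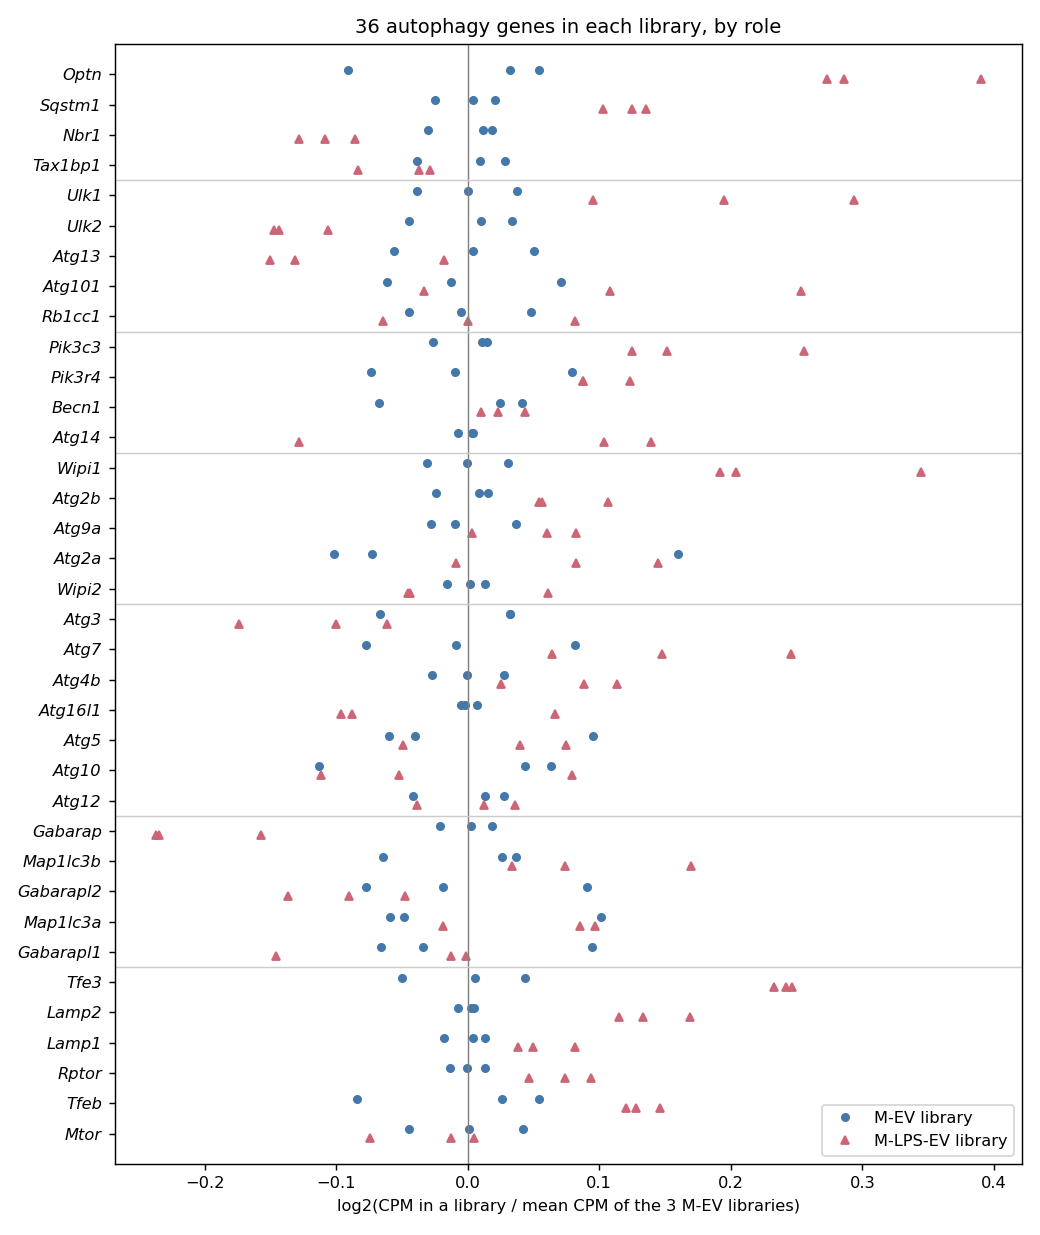
Each of the 36 autophagy genes in the 6 libraries, as the log2 ratio of its CPM (counts scaled to a common library total) to the mean of the 3 M-EV libraries; circles are M-EV libraries and triangles M-LPS-EV libraries, and grey lines part the roles from cargo receptors at the top to lysosome and control at the bottom. The M-LPS-EV libraries lie wholly right of the M-EV libraries for Optn, Ulk1, Wipi1 and Tfe3, and wholly left for Nbr1, Ulk2 and Gabarap.

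The cargo receptors split. Of the 4, Optn and Sqstm1 rose, Nbr1 fell and Tax1bp1 was not called. Optn (ENSMUSG00000026672, chr2:5020642-5064051, minus strand, mm10) encodes optineurin, a ubiquitin-binding receptor for damaged mitochondria and bacteria. Its level per library was 30.1, 32.7 and 33.2 CPM in M-EV and 39.0, 42.0 and 38.7 CPM in M-LPS-EV, a rise from 32.0 ± 1.72 to 39.9 ± 1.79 CPM (SD, n = 3 each; log2 fold change 0.32, SE 0.05, adjusted p = 9.6e-06, edgeR). All M-LPS-EV libraries were above all M-EV libraries, and this was the highest fold change among the 36. Sqstm1 (ENSMUSG00000015837, chr11:50199366-50210827, minus strand) encodes p62, the aggregate receptor that is itself degraded by autophagy, and had 421, 417 and 408 CPM in M-EV and 453, 446 and 456 CPM in M-LPS-EV. The groups did not overlap, and the rise was 8.74% (log2 fold change 0.12, SE 0.02, adjusted p = 4.7e-05, edgeR). Nbr1, a receptor that works together with p62, went the other way, from 147 ± 2.64 to 136 ± 2.02 CPM (SD, n = 3 each; log2 fold change -0.11, SE 0.03, adjusted p = 0.005, edgeR). Tax1bp1, the remaining ubiquitin-binding receptor, was between 99.2 and 104 CPM in M-EV and between 96.1 and 99.9 CPM in M-LPS-EV, with ranges that overlapped (adjusted p = 0.297, edgeR).

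In the initiation complex, the 2 genes of the ULK kinase moved in opposite directions. Ulk1, the kinase that AMPK and mTORC1 act on, was at 29.8, 31.4 and 30.6 CPM in M-EV and at 35.0, 37.5 and 32.7 CPM in M-LPS-EV. The groups did not overlap, and the rise had a log2 fold change of 0.20 (SE 0.05, adjusted p = 0.00334, edgeR). Ulk2, its close relative, was at 50.1, 50.9 and 48.2 CPM in M-EV and at 46.2, 45.0 and 44.9 CPM in M-LPS-EV. It fell without overlap, by 0.13 on the log2 scale (SE 0.04, adjusted p = 0.0129, edgeR). The other 3 subunits were not called: Atg13, the regulatory subunit, had a log2 fold change of -0.10 (adjusted p = 0.0951), Atg101, its partner, 0.11 (adjusted p = 0.344), and Rb1cc1, the scaffold also called FIP200, 0.01 (adjusted p = 0.901, all edgeR).

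Of the 4 genes of the nucleation complex, 1 rose. Pik3c3, the lipid kinase VPS34 itself, was at 16.8, 16.3 and 16.8 CPM in M-EV and at 19.8, 18.1 and 18.5 CPM in M-LPS-EV. The groups did not overlap (log2 fold change 0.18, SE 0.06, adjusted p = 0.0362, edgeR). The regulatory subunit Pik3r4 (VPS15) also had libraries that did not overlap, but its log2 fold change of 0.10 was not called (adjusted p = 0.179, edgeR), and Atg14, the subunit that directs the complex to autophagy, had 0.04 (adjusted p = 0.737). Becn1, the Beclin 1 scaffold, was at 76.2, 82.2 and 81.3 CPM in M-EV and at 82.4, 81.2 and 80.5 CPM in M-LPS-EV. These ranges overlapped and the count test gave a log2 fold change of 0.03 (SE 0.04, adjusted p = 0.638, edgeR). Becn1 was the gene of the 36 whose value moved most with transcript length. On the length-scaled TPM it was at 103, 107 and 117 in M-EV and at 94.7, 94.7 and 96.6 in M-LPS-EV, without overlap. With each gene's mean effective length in each library as an offset, the edgeR log2 fold change was -0.18 (adjusted p = 0.030).

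The length behind the Becn1 values is that of several transcripts. Weighted over its transcripts, the mean effective length of Becn1 was 1284 bases in M-EV and 1479 bases in M-LPS-EV. Becn1-211, a retained-intron transcript of 487 bases, was at 31.4, 24.7 and 32.1 TPM in M-EV and at 21.1, 17.1 and 25.8 TPM in M-LPS-EV, with ranges that overlapped. Another retained-intron transcript of Becn1, of 2662 bases, took 6.44%, 10.4% and 8.75% of the gene's abundance in M-EV and 12.04%, 13.5% and 11.2% in M-LPS-EV, without overlap. These transcript values were not tested. With the length offset, 7 of the 36 genes were called higher and 3 lower, beside 19.6% of all tested genes called either way. RSEM estimates such splits between transcripts, and the uncertainty of that estimate is not in these tests.

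**Figure D2:**
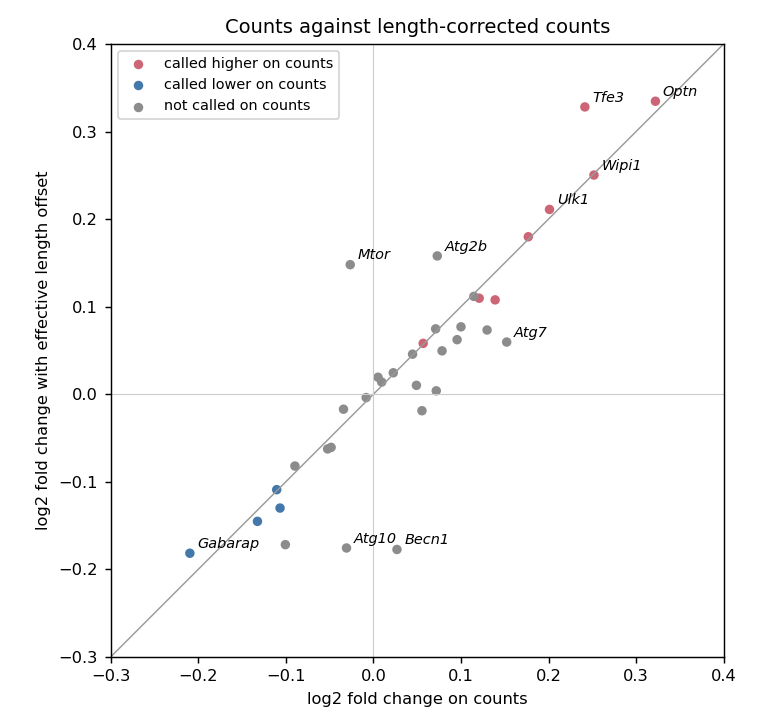
Log2 fold change of M-LPS-EV over M-EV for the 36 autophagy genes, from the count test (x axis) and from the same test with each gene's effective length as an offset (y axis); the diagonal marks equal values and the colours give the call on counts. Most genes lie near the diagonal, Becn1 lies at 0.03 on counts and -0.18 with the offset, and Mtor at -0.03 and 0.15.

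Among the 5 membrane and PI3P genes, Wipi1 rose and the other 4 were not called. Wipi1, which binds PI3P on the growing membrane, was at 27.2, 27.8 and 28.4 CPM in M-EV and at 31.8, 35.3 and 32.0 CPM in M-LPS-EV. All M-LPS-EV libraries were higher, with means of 27.8 ± 0.592 and 33.0 ± 1.98 CPM (SD, n = 3 each; log2 fold change 0.25, SE 0.05, adjusted p = 0.00038, edgeR). Its relative Wipi2, which recruits ATG16L1, had a log2 fold change of -0.01 (adjusted p = 0.899, edgeR). Atg2b, a lipid transfer protein, was at 74.3, 73.9 and 72.3 CPM in M-EV and at 76.3, 79.1 and 76.4 CPM in M-LPS-EV. The groups did not overlap, and the log2 fold change of 0.07 was not called on counts (adjusted p = 0.125) but was with the length offset (0.16, adjusted p = 0.036, both edgeR). Atg2a, its relative, and Atg9a, the membrane protein of the vesicles that seed the autophagosome, had log2 fold changes of 0.07 and 0.05 (adjusted p = 0.428 and 0.303, edgeR).

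The conjugation genes had the smallest share called of any role, 1 of 7 (14.3%), beside 31.6% over all tested genes. Whether the roles differ in this share was not tested. Atg3, the E2-like enzyme that hands ATG8 proteins to lipid, was at 72.7, 72.7 and 67.9 CPM in M-EV and at 63.0, 68.1 and 66.3 CPM in M-LPS-EV. It fell by 0.11 on the log2 scale (SE 0.04, adjusted p = 0.0366, edgeR), and it was the only called gene of the 36 whose libraries overlapped, since 1 M-LPS-EV library was above the lowest M-EV library. Atg7, the E1-like enzyme upstream of it, was at 16.8, 15.01 and 15.7 CPM in M-EV and at 18.8, 17.5 and 16.6 CPM in M-LPS-EV. These ranges overlapped at one library (log2 fold change 0.15, SE 0.07, adjusted p = 0.0997, edgeR). Atg5, a component of the ATG12 conjugate, was at 26.7, 29.7 and 27.1 CPM in M-EV and at 28.6, 26.9 and 29.3 CPM in M-LPS-EV, with full overlap (log2 fold change 0.02, SE 0.05, adjusted p = 0.805, edgeR). The protease Atg4b, the scaffold Atg16l1, the E2-like Atg10 and the ubiquitin-like Atg12 had adjusted p of 0.163, 0.667, 0.88 and 0.948 (edgeR).

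Of the 5 ATG8 genes, which code for the proteins that coat the autophagosome membrane, Gabarap fell and 4 were not called. Gabarap (ENSMUSG00000018567, chr11:69991143-69994951, plus strand) was at 232, 229 and 226 CPM in M-EV and at 195, 194 and 205 CPM in M-LPS-EV. Each M-LPS-EV library was below each M-EV library, and the change of -13.5% was the lowest among the 36 (229 ± 3.18 to 198 ± 6.30 CPM, SD, n = 3 each; log2 fold change -0.21, SE 0.03, adjusted p = 4.9e-07, edgeR). Map1lc3b, the LC3B gene most used as an autophagosome marker, was at 89.0, 95.5 and 94.8 CPM in M-EV and 95.3, 105 and 98.0 CPM in M-LPS-EV. These ranges overlapped by little, and the difference missed the threshold (log2 fold change 0.10, SE 0.04, adjusted p = 0.0594, edgeR), which it passed without M-LPS-EV replicate 1 (0.12, adjusted p = 0.027). It shares 58 exon bases with Zcchc14 on the opposite strand, which had 66.8% as many counts. Whether the authors' counting used strand is not given in the sources used here.

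Gabarapl2 (GATE-16) was at 44.2, 47.7 and 42.4 CPM in M-EV and 43.3, 42.0 and 40.7 CPM in M-LPS-EV. Map1lc3a (LC3A) was at 35.5, 39.7 and 35.8 CPM in M-EV and 39.6, 36.5 and 39.2 CPM in M-LPS-EV. Gabarapl1 was at 46.1, 51.5 and 47.1 CPM in M-EV and 47.8, 43.6 and 48.2 CPM in M-LPS-EV. The groups overlapped for all 3, with log2 fold changes of -0.09, 0.06 and -0.05 (adjusted p = 0.146, 0.438 and 0.452, edgeR). With the length offset Map1lc3a was at -0.02 (adjusted p = 0.89). On the per-length scale Gabarap was the most abundant of the 5, at 438 ± 13.3 TPM in M-EV and 382 ± 7.89 TPM in M-LPS-EV (SD, n = 3 each). Summed over the 5 genes, the ATG8 transcripts came to 760, 777 and 733 TPM in M-EV and 691, 700 and 694 TPM in M-LPS-EV, and Gabarap made up 57.8% of the M-EV sum and 54.9% of the M-LPS-EV sum. The sums did not overlap between groups (exact permutation test, two-sided, p = 0.1, the smallest that 3 against 3 libraries allow).

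**Figure D3:**
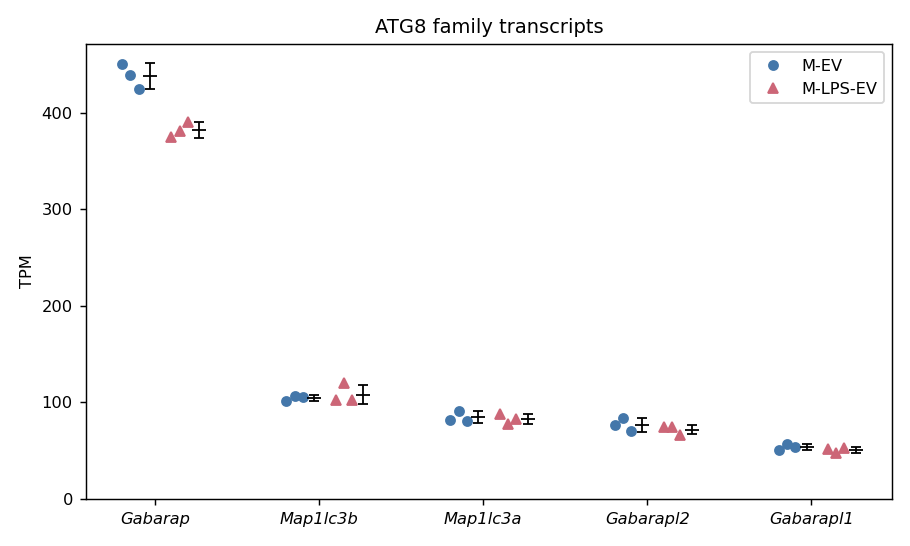
TPM of the 5 ATG8 genes in each M-EV library (circles) and M-LPS-EV library (triangles); black bars give the group mean with its SD (n = 3). Gabarap stands highest at 424 to 450 TPM in M-EV and 375 to 390 TPM in M-LPS-EV, and the groups meet or overlap for the other 4 genes.

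Of the 6 lysosomal and control genes, 3 rose and the other 3 were not called. Tfe3 (chrX:7762560-7775202, plus strand), a transcription factor of lysosome and autophagy genes, was at 55.6, 57.8 and 59.3 CPM in M-EV and at 68.3, 68.1 and 67.6 CPM in M-LPS-EV. The groups stood well apart, at 57.6 ± 1.87 and 68.0 ± 0.322 CPM (SD, n = 3 each; log2 fold change 0.24, SE 0.04, adjusted p = 1.4e-05, edgeR). Tfeb, its relative, was at 11.0, 9.98 and 10.8 CPM in M-EV and 11.5, 11.7 and 11.6 CPM in M-LPS-EV. Its libraries did not overlap either, but the log2 fold change of 0.13 was not called (95% interval -0.04 to 0.30, adjusted p = 0.243, edgeR), and whether Tfe3 and Tfeb differ in response was not tested. Lamp2 (chrX:38401357-38456454, minus strand), a lysosomal membrane glycoprotein needed for fusion, was at 298, 296 and 299 CPM in M-EV and at 327, 323 and 335 CPM in M-LPS-EV. That is a rise of 10.1% without overlap (log2 fold change 0.14, SE 0.02, adjusted p = 1.8e-05, edgeR). Lamp1 (chr8:13159161-13175338, plus strand), the other major lysosomal membrane glycoprotein, rose from 512 ± 5.61 to 533 ± 8.34 CPM (SD, n = 3 each; log2 fold change 0.06, SE 0.02, adjusted p = 0.0312, edgeR). Mtor, the kinase that restrains autophagy when nutrients are plentiful, was at 49.3, 47.8 and 50.8 CPM in M-EV and at 49.5, 48.9 and 46.8 CPM in M-LPS-EV, with overlap (log2 fold change -0.03, SE 0.04, adjusted p = 0.68, edgeR, and 0.15 with the length offset, adjusted p = 0.29). Rptor, the mTORC1 subunit that binds its substrates, had a log2 fold change of 0.07 (adjusted p = 0.175, edgeR).

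**Figure D4:**
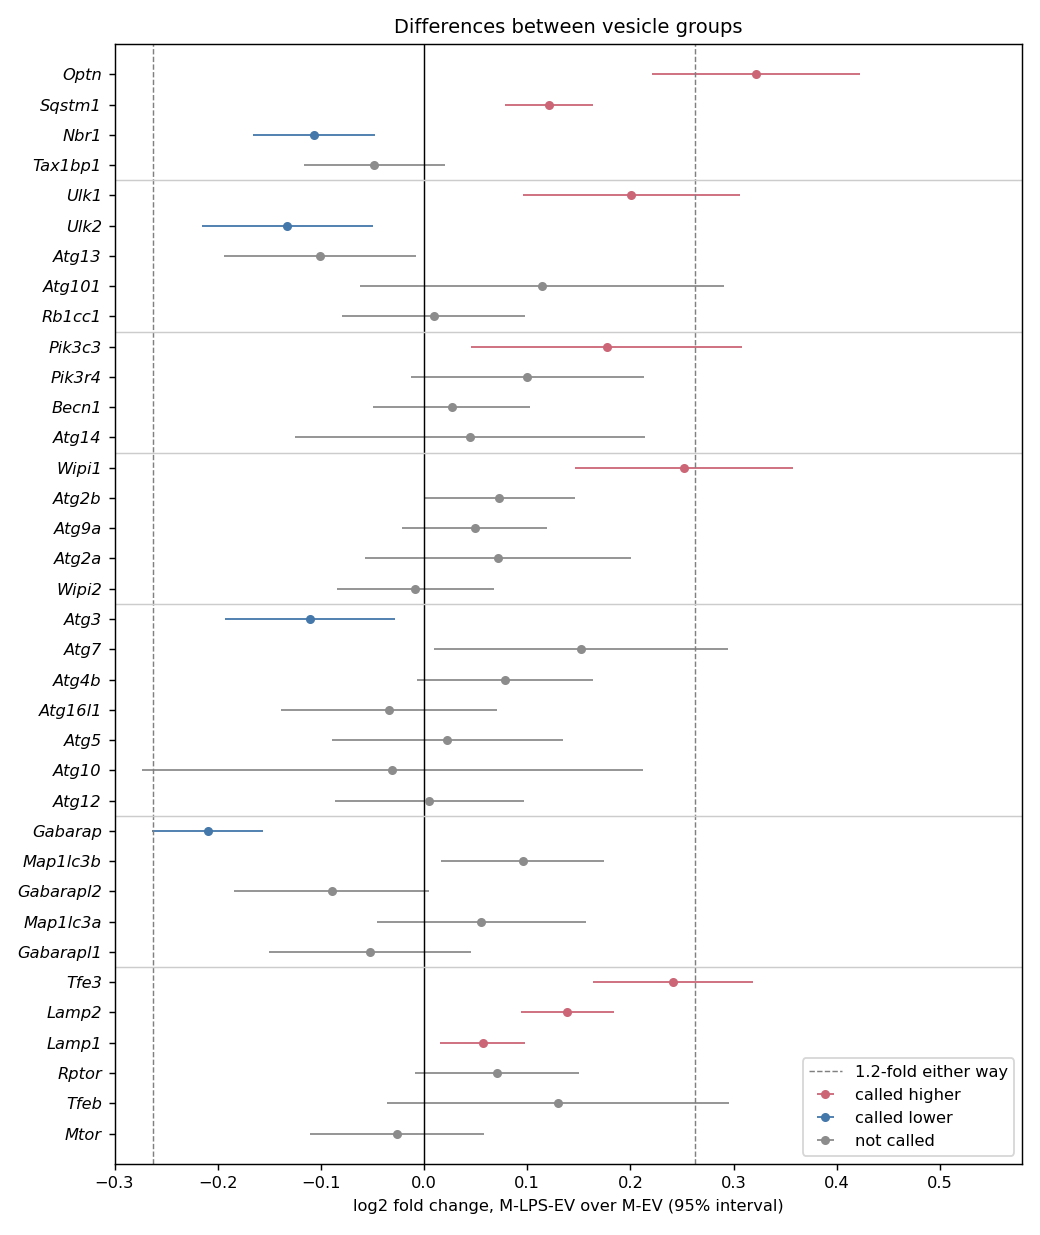
Log2 fold change of M-LPS-EV over M-EV with its 95% interval for the 36 autophagy genes (edgeR quasi-likelihood test), grouped by role; colours give the call and dashed lines mark a change of 1.2-fold either way. The 8 genes called higher and 4 called lower lie among 24 uncalled genes, and every point estimate but that of Optn is inside the dashed lines.

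In the count fit, the 24 uncalled genes had narrow intervals. Their 95% intervals all lay between -0.27 and 0.30 on the log2 scale, and for 20 of them the interval lay inside a change of 1.2-fold either way. These intervals do not cover the choice of length scaling. With the length offset Becn1 was at -0.18 and Mtor at 0.15, outside their count intervals of -0.05 to 0.10 and -0.11 to 0.06. Per transcript length, levels in M-EV spanned from 6.40 TPM for Atg14 to 443 TPM for Lamp1, with a median of 24.6 TPM beside 13.9 TPM over all tested genes. The order in M-EV began with Lamp1 (443 TPM), Gabarap (438 TPM) and Sqstm1 (415 TPM). The M-EV ranges of Lamp1 and Gabarap overlapped, and Sqstm1 lay below both at 407 to 420 TPM. They were followed by Lamp2 at 210 TPM, Becn1 at 109 TPM and Map1lc3b at 105 TPM, of which Becn1 and Map1lc3b overlapped. Each Becn1 transcript with a mean share of at least 10% was a nonsense-mediated-decay or retained-intron one. Becn1-211, of 487 bases, alone gave 24.7 to 32.1 TPM in M-EV, so the place of Becn1 in this order depends on RSEM's split. The lowest were Atg10, Atg2a, Atg7 and Atg14, between 8.97 and 6.40 TPM. The lysosomal glycoproteins, Gabarap and the p62 gene thus stood highest.

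Transcript use within the genes was compared as RSEM's estimate of each transcript's share. Of the 36 genes, 22 had at least 2 transcripts with a mean share of at least 10%, and 6 of those 59 transcripts had shares that did not overlap between the groups. That is 10.2%, beside 11.7% of such transcripts over all tested genes, so the count was near the background. Examples among the 6 are given as values only. In Atg10, the protein-coding Atg10-201 took 62.8%, 67.4% and 68.4% of the gene's abundance in M-EV and 69.0%, 100% and 90.0% in M-LPS-EV. The nonsense-mediated-decay transcript Atg10-203 took 37.2%, 30.5% and 31.6% in M-EV and 18.7%, 0% and 4.27% in M-LPS-EV. That second set rests on few reads, 22.8 to 37.3 expected counts in the M-EV libraries and 0 to 14.1 in the M-LPS-EV libraries. Atg4b-203 took 20.5%, 24.6% and 24.5% of its gene in M-EV and 15.8%, 17.3% and 18.0% in M-LPS-EV. Few reads lie behind it as well, 36.5 to 45.4 expected counts in the M-EV libraries and 26.4 to 33.3 in the M-LPS-EV libraries. These shares were not tested.

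Promoters of some of the genes were searched for known recognition letters, because MiT/TFE factors such as TFE3 and TFEB bind CACGTG, and TCACGTGA is the centre of their element. RefSeq promoter windows (GRCm38.p6, 250 bases before to 50 after the start) were matched for 30 of the 36 genes. CACGTG, which reads the same on both strands and also lies inside TCACGTGA, was in 5 of the 30 (Lamp1, Atg3, Atg5, Atg7 and Atg14), beside 8.09% of all genes with a window. TCACGTGA was in 1 of the 30, Atg3, beside 1.13% of all. TGACNNNGC, the antioxidant response element, searched on both strands, was in 4 of the 30 (Atg13, Tax1bp1, Map1lc3b and Ulk2), beside 14.0% of all. Of the 5 genes with CACGTG, Lamp1 rose, Atg3 fell and 3 were not called. The 120 bases before the start of Lamp1 hold 4 copies of CACGTG, and those of Atg3 hold 2, one of them within TCACGTGA. They are given 5′ to 3′ on the gene's strand with Bnip3, the mitophagy receptor gene described next; capitals mark CACGTG, or TCACGTGA where it is complete.
Lamp1, chr8:13159041-13159160, plus strand: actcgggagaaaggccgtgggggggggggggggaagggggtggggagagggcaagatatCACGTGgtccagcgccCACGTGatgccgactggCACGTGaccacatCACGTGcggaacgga
Atg3, chr16:45158709-45158828, plus strand: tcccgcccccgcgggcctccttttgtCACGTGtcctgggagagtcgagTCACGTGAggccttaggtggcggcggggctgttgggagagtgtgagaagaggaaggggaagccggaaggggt
Bnip3, chr7:138909507-138909626, minus strand: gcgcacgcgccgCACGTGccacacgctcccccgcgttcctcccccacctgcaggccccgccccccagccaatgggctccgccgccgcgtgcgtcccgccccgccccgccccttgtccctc
Of 75 wider genes with a window, CACGTG was in 18 (24%, beside 8.09% of all) and TCACGTGA in 8 (10.7%, beside 1.13% of all). Bnip3, which rose, held CACGTG alone, while Sec62, which fell, held TCACGTGA. Whether these letters go with the changes was not tested. A match describes the letters of a window and no binding was measured.

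In the wider pathway around the core, most genes were not called and a few changed by more than any of the 36. Of 88 further autophagy genes, 86 were tested, and 11 rose and 13 fell (27.9%, edgeR, beside the same 31.6% of all tested genes). Their median log2 fold change was -0.01. Their median size of change was 0.064, below the 0.084 of the 36 genes and the 0.129 of all tested genes. These sizes too were not matched for level. Of the 86, 5 (5.81%) reached 0.5 in size, beside 11.1% of all tested genes. This list was chosen with earlier results of these data known, so the genes named from it do not stand for the pathway. Against a change of 1.2-fold, edgeR called 5 higher and 0 lower, with 3 of those lower at an unadjusted p under 0.05.

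Among 16 tested genes for other selective receptors and mitophagy, 4 rose and 3 fell. Bnip3l (NIX) and Bnip3, outer-membrane receptors for the removal of mitochondria and known targets of the hypoxia response, led them. Bnip3l was at 99.7, 96.3 and 94.9 CPM in M-EV and at 188, 183 and 183 CPM in M-LPS-EV (log2 fold change 0.93, SE 0.03, adjusted p = 1.5e-18, edgeR). Bnip3 was at 239, 235 and 239 CPM in M-EV and at 394, 384 and 397 CPM in M-LPS-EV (log2 fold change 0.72, SE 0.02, adjusted p = 7.3e-19, edgeR). Both were far above their spread between libraries. Tex264, a receptor for the endoplasmic reticulum, rose with a log2 fold change of 0.20 (SE 0.04, adjusted p = 0.00021), a call lost with the length offset (0.16, adjusted p = 0.056), and Sec62, another such receptor, fell by 0.24 (SE 0.03, adjusted p = 3.4e-07, edgeR).

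Among 13 other core genes, 2 rose and 1 fell. Atg9b, the second ATG9 gene, rose from 2.07 ± 0.344 to 4.97 ± 0.230 CPM (SD, n = 3 each; log2 fold change 1.27, SE 0.16, adjusted p = 7.8e-07, edgeR), while its relative Atg9a was not called. Atg9b overlaps 294 exon bases of Nos3 on the opposite strand, which had 2 to 7 counts per library. Wdr45 (WIPI4), a partner of ATG2, rose (log2 fold change 0.23, SE 0.07, adjusted p = 0.0144, edgeR), a call lost with the length offset (0.28, adjusted p = 0.057). Tmem41b, a lipid scramblase that autophagosome formation needs, fell from 78.9 to 63.3 CPM (log2 fold change -0.32, SE 0.04, adjusted p = 9.4e-07, edgeR).

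Among 25 genes of mTORC1 and AMPK control, 4 rose and 3 fell. Ddit4 (REDD1), a stress-induced inhibitor of mTORC1, went from a mean of 106.5 CPM up to 147.2 CPM (log2 fold change 0.47, SE 0.03, adjusted p = 4.1e-12), and Prkab1, an AMPK subunit, rose too (0.22, SE 0.05, adjusted p = 0.00086, edgeR). The Prkab1 call was lost under limma on log2(TPM + 1) (0.24, adjusted p = 0.056). Deptor and Sesn1, which also restrain mTORC1, fell by 0.28 (SE 0.03, adjusted p = 1.3e-07) and 0.36 (SE 0.07, adjusted p = 0.00033, edgeR). Inhibitors of mTORC1 were thus found in both directions. Among 13 fusion genes, 11 were not called and 2 fell, Ykt6 (-0.13, SE 0.03, adjusted p = 0.00133), a fusion SNARE, and Vps41 (-0.12, SE 0.04, adjusted p = 0.0245, edgeR), a tethering subunit whose call was lost with the length offset (-0.13, adjusted p = 0.12).

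Among 19 tested MiT/TFE and acidification genes, 1 rose and 4 fell. Mitf, a relative of Tfe3, rose from a mean of 4.48 to a mean of 6.65 CPM (0.58 in log2 fold change, SE 0.13, adjusted p = 0.0013, edgeR), a call lost with the length offset (0.46, adjusted p = 0.10). The 4 that fell were subunits of the proton pump of the lysosome, led by Atp6v1g1 (-0.19, adjusted p = 1.3e-05), Atp6v0c (-0.11, adjusted p = 0.00134) and Atp6v1h (-0.14, adjusted p = 0.0054, edgeR). These fell while Lamp1 and Lamp2 rose, but 14 of the 19 genes were not called. Of 17 other ways of running the test, the Lamp1 call was kept in 6 and the Lamp2 call in 16.

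**Figure D5:**
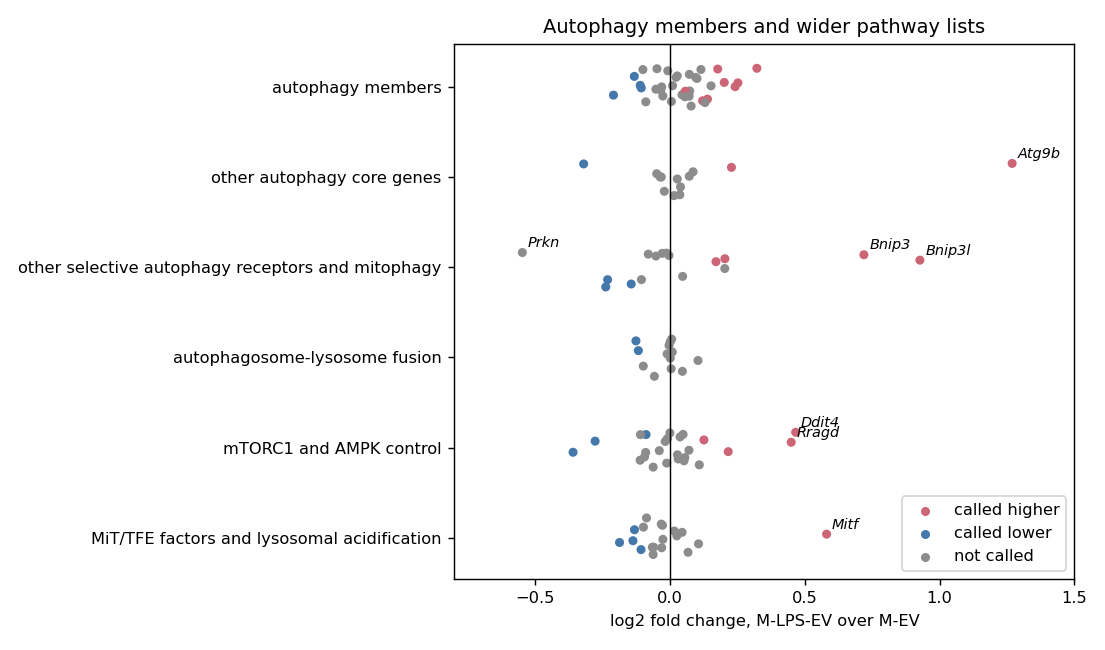
Log2 fold change of M-LPS-EV over M-EV for the 36 autophagy genes (top row) and the tested genes of 5 wider lists, 1 point per gene, with colours for the call (edgeR quasi-likelihood test) and vertical scatter for display only. The 36 genes lie between -0.21 and 0.32, while Atg9b, Bnip3l, Bnip3, Mitf and Ddit4 reach 0.47 to 1.27.

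The calls differed in how firmly they held. Gabarap, Lamp2, Optn, Sqstm1, Tfe3 and Wipi1 kept their call under 16 of 17 other ways of running the test, and lost it only when a change above 1.2-fold was asked for. Nbr1 kept its call in 15, Ulk1 in 14, Ulk2 in 11, Atg3 in 8, and Lamp1 and Pik3c3 in 6 each. Leaving out 1 library was enough to lose 4 of these calls. With a library fewer, calls over all genes fell too, from 2397 higher to 2100 to 2245 and from 2217 lower to 1878 to 2072. Ulk2 was not called without M-EV replicate 2 (log2 fold change -0.12, adjusted p = 0.057, edgeR). Atg3 was not called without M-EV replicate 1 or 2 or M-LPS-EV replicate 1 or 3 (-0.11 to -0.08, adjusted p 0.065 to 0.18). Lamp1 was not called without any one of the M-EV libraries or M-LPS-EV replicate 1 or 2 (0.04 to 0.06, adjusted p 0.053 to 0.16). Pik3c3 was not called without any one of the M-EV libraries or M-LPS-EV replicate 1 (0.14 to 0.18, adjusted p 0.063 to 0.16). In the other direction, Atg13 was called lower without M-LPS-EV replicate 1 (-0.14, adjusted p = 0.034, edgeR). Of the wider genes named above, Wdr45 was not called without M-EV replicate 1 or 3 or M-LPS-EV replicate 1 (0.20 to 0.22, adjusted p 0.050 to 0.070), nor Vps41 without M-EV replicate 2 or 3 or M-LPS-EV replicate 1 (-0.11 to -0.10, adjusted p 0.061 to 0.11).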

How the data were processed

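Groups and replicate numbers of the 6 libraries are those of the titles. The submitters' processing notes name STAR, an aligner, RSEM, a quantifier, DESeq2 and the build mm10; the versions and settings, strand included, and the gene annotation were not given in the sources used here. The authors deposited, for each of 142699 transcripts, an expected count estimated by RSEM, which need not be whole. The deposited TPM values are scaled by effective length and library, and IsoPct, also deposited, is the percent of a gene's abundance that comes from one transcript, both per the file headers. Transcript and effective lengths in bases stand beside them in the deposited files. Of the transcript identifiers 99.1% were in GENCODE M21 (GRCm38), which gave symbols, coordinates (1-based) and gene types.

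Expected counts were summed per gene and rounded. edgeR 4.0.16 in R 4.3.3 filtered genes (filterByExpr, minimum count 10, minimum total 15), which kept 99.91% of counts, scaled libraries by TMM, and fitted a quasi-likelihood model with group as its only term. Calls were made at a Benjamini-Hochberg adjusted p of 0.05 over all 14604 genes, two-sided. CPM are scaled by TMM, and an SD is over the 3 libraries of a group. In each role the up to 2 genes with the smallest p, the 5 ATG8 genes, and Becn1, Ulk1, Atg5, Atg7, Tfeb, Mtor and Lamp2 were to be given per library, and up to 4 genes with the smallest p of each wider list were to be named. The 36 genes, the wider and marker lists, motifs and rules were chosen with earlier results of these data known. Alternatives were other scalings and filters, a length offset, a replicate block, leaving out each library, a test against 1.2-fold, DESeq2 1.42.0, and limma 3.58.1 on voom values or on log2(TPM + 1) and log2(TPM + 0.1). In the test on simulated data, made for this comparison over 14393 genes, 24 of 49 genes changed by a log2 fold of 0.25 were called, 34 of 48 at 0.5, 44 of 50 at 1 and 47 of 48 at 2, and 10 of 14198 unchanged genes were called. Libraries of the same group differed by more than sampling noise (chi-square per degree of freedom 1.69 to 2.78), so none was counted as a duplicate.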

Additional observations from a re-analysis of the deposited data

How the results depend on the processing

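Among the 36 autophagy genes 8 were called higher and 4 lower. The test against 1.2-fold called 0 higher and 0 lower, both limma fits on TPM called 5 higher, and leaving out a library gave 6 to 8. The 4 lower became 2 under DESeq2 and under limma on log2(TPM + 0.1), and 2 to 4 when a library was left out, with 2 without M-EV replicate 2. Of the wider genes, 11 higher became 5 with the length offset, 7 under DESeq2, 4 in both limma fits on TPM and 5 against 1.2-fold (8 to 10 without a library), and 13 lower became 0 against 1.2-fold (11 to 17 without a library). Over all genes, 2397 higher became 1539 with the length offset, 1280 and 1284 under limma on log2(TPM + 1) and log2(TPM + 0.1), and 760 against 1.2-fold, and 2217 lower became 1328, 1342, 1335 and 377 in the same order.

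Direction turned for genes that were not called on counts. With the length offset the log2 fold change was -0.18 for Becn1 (adjusted p = 0.030, edgeR), -0.019 for Map1lc3a, 0.15 for Mtor and -0.083 for Atg4d. Under limma on log2(TPM + 1) and log2(TPM + 0.1) it was -0.0039 and -0.0042 for Rb1cc1, -0.19 and -0.19 for Becn1 (adjusted p = 0.027 in both), -0.0039 and -0.0040 for Atg9a, -0.0082 and -0.0089 for Atg2a, -0.032 and -0.032 for Map1lc3a, 0.13 and 0.13 for Mtor, and -0.074 and -0.078 for Atg4d. Upper quartile scaling gave -0.0044 for Rb1cc1 and -0.0086 for Atg12, which was at -0.00073 with no count filter. With 1 library left out, values ran from -0.031 to 0.044 for Rb1cc1, -0.0071 to 0.048 for Becn1, -0.0087 to 0.12 for Atg14, -0.044 to 0.011 for Wipi2, -0.0079 to 0.071 for Atg5, -0.083 to 0.013 for Atg10 and -0.016 to 0.026 for Atg12. The length offset brought in length and also recomputed the library scaling and the spread, so length alone was not isolated. For the other turns the cause was not tested.

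A replicate block called 9 of the 36 genes higher and 4 lower, 9 and 13 of the wider genes, and 2346 and 2173 of all genes, and changed the call of 1 autophagy gene, Map1lc3b (log2 fold change 0.09, adjusted p = 0.050). Deviations of same-numbered libraries correlated at -0.052, -0.034 and -0.032 over 10646 genes, and not every library correlated best with its own number. No pairing was seen, but with 3 libraries a group these correlations cannot show that there was none.

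At these depths, replicate numbers and spreads, the simulated test called 24 of 49 changes of 0.25 on the log2 scale. It left 14198 of its 14393 genes unchanged, while 31.6% of all tested genes were called in the measured data. The adjusted p depends on that share, so the 24 of 49 holds for the simulated setting only. How often a change of 0.25 would be called among the 36 genes was not tested. Depth alone was not varied. 13 overlaps of exon bases touched 12 of the 36 genes, and in 4 the other gene had over 5% of the counts (Rb1cc1, Atg9a, Atg2b and Map1lc3b). With 3 libraries a group, an exact permutation test cannot go below p = 0.1.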
